A study of Mus musculus with 6 samples.

Results

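A set of 39 genes was called well above background on every array from old muscle and on no array from young muscle. The calls are those of the scanner software, which marks each spot as well above background or not. A gene belonged to the set if at least 1 of its probes carried the mark on all 3 old arrays and none of its probes carried it on any of the 3 young arrays. Of 21368 genes that could be named by a symbol, 53 met this condition (0.248%), and 14 of them, named in the rule, were left out, which leaves the 39. The reverse condition, called on all 3 young arrays and on no old array, was met by 37 genes (0.173%). These calls chose the genes, so the difference between old and young in their signal is a description here and carries no test.

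The RNA came from the gastrocnemius, a calf muscle, of old male mice aged 25 months (3 samples) and of young male mice aged 13 weeks (3 samples). The labels name no treatment, and they do not say whether each sample came from a separate animal, so that p-values given below measure only the spread between these samples. The strain is not given in the sources used here. Each RNA, carrying the dye Cy3, was read on a single-colour Agilent array of its own. All 6 arrays sat on 1 slide, with old replicate 1 and the young arrays in its first row and old replicates 2 and 3 in its second.

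Muscle tissue holds far more than muscle fibres. Resident and infiltrating leukocytes, nerve endings, vessels, tendon and fat all contribute RNA, and a transcript that only a rare cell makes lies close to the limit of what an array can register. In aged muscle, changes in immune cells, in the nerve supply of fibres and in systemic inflammation are well known. In bulk tissue, more cells of a type cannot be told apart from more RNA per cell.

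Signals are given as a percentage of the 75th percentile of the same array, so that arrays of different overall brightness can be set side by side. On this scale the lowest signal that was still called well above background was 6.84, 7.04 and 5.97% on old replicates 1, 2 and 3, and 5.43, 6.67 and 6.81% on young replicates 1, 2 and 3. The number of arrays limits the precision of every value. Old replicate 1 had the most probes called, 53.8%, against 48.7% and 50% on the other old arrays and 49.2% to 50.8% on the young arrays, and its negative control spots were the brightest (mean 61.3, against 51.9 to 55.1 on the others). The slope fitted to its spiked-in control RNA was the lowest, 0.84 against 0.925 to 0.941 on the others. All 13 defining genes of skeletal muscle that were checked, among them Acta1, Ckm and Myh4, were called on all 6 arrays.

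The 39 genes were dim. Their mean signal over the old arrays ran from 8.56 to 31.0%, with a median of 13.8%. In 36 of them the weakest old array lay within 2-fold of the lowest signal that was called there, and in 23 within 1.5-fold. That they were detected only in old muscle holds for this mark alone. A second, weaker mark of the scanner software, for a signal that is positive and significantly above background, was set for all 39 on at least 1 young array and for 29 on all 3 young arrays. With that weaker mark in place of the stronger one 46 genes met the rule, and 0 of the 39 were among them. With a limit set from the negative control spots (their mean plus 3 SD) 20 genes met it, again with 0 of the 39. The set thus rests on 1 particular mark and is called here by that rule. The mark is set spot by spot, and a signal above the lowest one called on an array need not carry it, as with the young values of Cyp4f14 and Sash3. Leaving out an array relaxes the rule, and the number that met it was then 89, 88 and 63 without old replicate 1, 2 or 3 and 78, 47 and 60 without young replicate 1, 2 or 3.

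Every old signal lay above every young signal in 38 of the 39 genes, while over all 20907 genes tested this held for 7.91%. The rule used the same contrast, so nothing is read from that difference. The exception was Lce1c, a protein of the cornified skin envelope, at 13.1, 8.81 and 8.63% on the old arrays, against 5.28, 9.14 and 9.07% on the young arrays. Its old and young values overlapped.

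**Figure D1:**
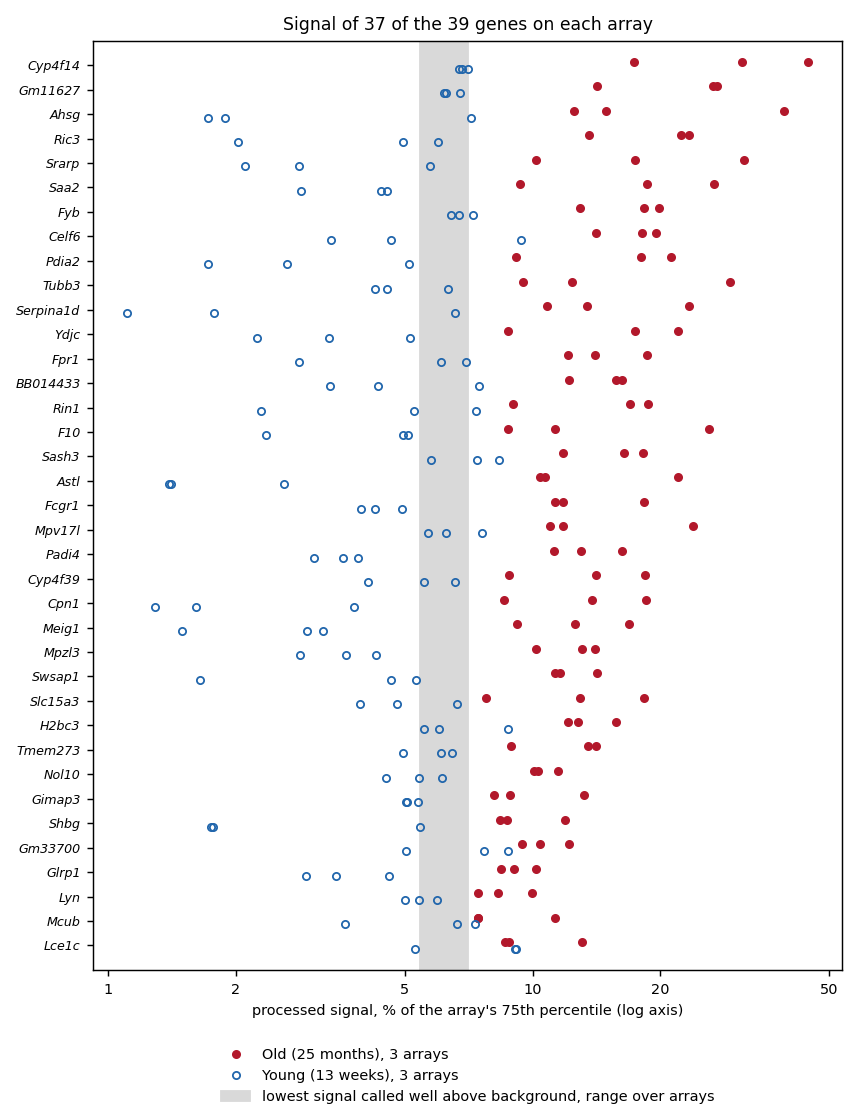
Signal of 37 of the 39 genes on the 3 old arrays (filled) and the 3 young arrays (open), as a percentage of the array's 75th percentile on a log axis, ordered by the lower bound on the fold. The grey band spans the lowest signals called well above background, 5.43 to 7.04%, and most young points lie in it or left of it.

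Because a young signal without the mark gives only an upper bound on the level, the fold was computed as the old mean over the lowest signal called on each young array, or over the young signal itself where that was higher. This bound was over 1 in all 39 genes and ran from at least 1.30-fold for Lce1c to at least 4.21-fold for Cyp4f14. The words at least refer to the detection limit alone, since the bound does not allow for the spread among arrays. For Cyp4f14 it ran from 3.38-fold to 5.43-fold when 1 old array was left out. The bound reached 2-fold in 23 genes and 3-fold in 3. Among the 37 genes called only in young muscle it reached 2-fold in 9 and 3-fold in 3, with at least 6.72-fold as the highest. From the old side 14 genes had been left out by name and from the young side none. The counts and highest bounds of the sets are therefore not alike in what they cover. The signals as measured, with the young ones taken at face value, gave a median log2 difference of 1.67 over the 39 genes, with a range from 0.40 to 2.97, beside -0.06 over all genes tested. Normexp background correction, whose offset compresses dim signals, gave a median of 0.36, so the size of these differences depends on how dim signals are treated. Within the first row of the slide, where old replicate 1 can be set against the 3 young arrays, the median was 1.51, and the difference was positive in 39 of the 39 genes. The rule used these same arrays, so nothing is read from that count, and the part of the slide row was not tested by it.

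**Figure D2:**
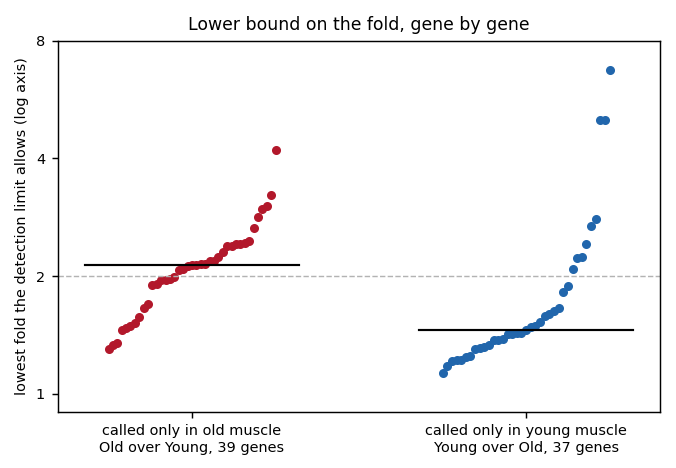
Lower bound on the fold for the 39 genes called only in old muscle (Old over Young) and the 37 called only in young muscle (Young over Old), on a log axis, with each point a gene and the black line the median. The dashed line marks 2-fold, which 23 of 39 and 9 of 37 genes reached. From the first set 14 genes had been left out by name, and from the second none.

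Of the 39 genes 37 were annotated as protein-coding, and 3 had only a clone or predicted-gene name. In 29 of them a single probe stood for the gene, so no second probe was there to compare. Of the other 10, both probes met the rule in 3, namely Pdia2, Fyb and Padi4. In the remaining 7 a further probe was called on 1 old array (Meig1 and Mpzl3) or on none, and on no young array. For Celf6 the other probe had 4.54, 1.62 and 1.41% on the old arrays, against 1.36, 3.46 and 1.74% on the young arrays. For Serpina1d it had 3.45, 5.84 and 2.63% on the old arrays, against 1.25, 1.56 and 1.56% on the young arrays. Different probes can read different transcripts of a gene.

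By what their products are known to do, 10 of the genes belong to leukocytes. A further 8 are plasma proteins or enzymes best known from the liver, apart from Cyp4f39, which is known from skin. Among these 8, Shbg was placed by what its human product is known for. The remaining 21 are scattered over nerve, mitochondrion, nucleus, skin and testis, or have no known role. This grouping was made after the values were seen and is used only to order the description.

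The promoters of 1 leukocyte gene and of a pair of genes for plasma proteins are printed because they stand for the 2 groups and each holds letters of a motif that was searched. Each covers 250 bases before to 50 bases after the start site, is taken from RefSeq on GRCm38.p6 and is written 5′ to 3′ in lower case, with the letters that matched a motif in capitals.
Padi4, chr4:140774154-140774453, - strand: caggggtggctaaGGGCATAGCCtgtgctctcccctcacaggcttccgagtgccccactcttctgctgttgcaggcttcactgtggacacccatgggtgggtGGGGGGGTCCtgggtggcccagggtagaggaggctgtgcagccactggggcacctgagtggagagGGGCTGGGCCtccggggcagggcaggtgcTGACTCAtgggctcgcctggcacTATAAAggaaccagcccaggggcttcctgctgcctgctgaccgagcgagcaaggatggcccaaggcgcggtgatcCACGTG
Saa2, chr7:46751583-46751882, + strand: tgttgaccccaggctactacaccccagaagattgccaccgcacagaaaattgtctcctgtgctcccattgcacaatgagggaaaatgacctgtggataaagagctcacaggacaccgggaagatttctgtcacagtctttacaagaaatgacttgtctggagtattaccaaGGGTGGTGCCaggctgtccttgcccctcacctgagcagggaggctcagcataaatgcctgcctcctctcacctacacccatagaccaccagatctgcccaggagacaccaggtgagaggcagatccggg
Serpina1d, chr12:103773584-103773883, - strand: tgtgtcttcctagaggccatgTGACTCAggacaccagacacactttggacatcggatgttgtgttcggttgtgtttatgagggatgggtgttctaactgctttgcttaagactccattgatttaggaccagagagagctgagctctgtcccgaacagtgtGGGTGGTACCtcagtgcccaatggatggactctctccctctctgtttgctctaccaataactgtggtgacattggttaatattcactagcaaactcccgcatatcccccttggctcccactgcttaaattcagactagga
In Padi4 the capitals mark a TATA box (TATAAA, 31 bases before the start), an AP-1 motif (TGANTCA, 54 bases before it), an NF-kB form (GGG, any 5 bases, CC) at 3 places and an E-box (CACGTG) after the start. In Saa2 they mark an NF-kB form 79 bases before the start, and in Serpina1d an AP-1 motif and an NF-kB form, 229 and 90 bases before it.

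Promoters were at hand for 30 of the 39 genes, in 37 windows of 300 bases. The letters of 8 motifs were searched on both strands, and a base can belong to more than 1 match. The TATA box was in 13.5% of these windows and in 13.6% of all 32851 promoter windows. The E-box CAGCTG, which myogenic factors read, was in 13.5% of the windows of the set and in 16.3% of all. The E-box CACGTG was in 13.5% of the windows of the set and 7.15% of all, the AP-1 motif in 8.11% of the set and 7.81% of all, and the NF-kB form in 48.6% of the set and 50.8% of all. The PU.1 motif (GAGGAAGT) was in 2.70% of the windows of the set and 3.20% of all, and the interferon element (GAAA, any 2 bases, GAAA) in 5.41% of the set and 3.44% of all. The C/EBP motif (TTGCGCAA) was in 0 windows of the set and in 0.183% of all. The G and C content had a median of 52.3% in the windows of the set and 52.7% in all. A match says only that these letters are present.

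The leukocyte genes hold receptors and signalling proteins. Padi4, the enzyme that turns arginine into citrulline in histones and is best known from neutrophils, had 11.2, 13.0 and 16.2% on the old arrays, against 3.06, 3.58 and 3.87% on the young arrays. All 3 old arrays were at like levels, and the bound was at least 2.12-fold. Its other probe met the rule too, at 7.72, 8.70 and 8.81% on the old arrays and 4.36, 6.38 and 5.87% on the young arrays, a smaller measured log2 difference of 0.62 beside 1.93. Fpr1, the receptor through which neutrophils and monocytes sense bacterial formyl peptides, had 14, 12.1 and 18.6% on the old arrays, against 2.81, 6.98 and 6.08% on the young arrays, and was at least 2.31-fold brighter. Fcgr1, the high-affinity receptor for immunoglobulin G on monocytes and macrophages, had 11.3, 11.8 and 18.3% on the old arrays, against 3.95, 4.26 and 4.92% on the young arrays. Its groups lay well apart, with the lowest old value 2.29 times the highest young one, and the bound was at least 2.14-fold.

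Signalling adaptors made up a second tier. Fyb, an adaptor that couples T cell receptors to integrins, had 19.8, 12.9 and 18.3% on the old arrays, against 6.42, 7.23 and 6.72% on the young arrays, and was at least 2.46-fold brighter, the highest bound of the leukocyte genes. Both of its probes gave a like measured log2 difference, 1.30 and 1.46. Sash3, an adaptor of lymphocytes, had 16.4, 18.2 and 11.8% on the old arrays, against 5.77, 7.4 and 8.31% on the young arrays. The gap between its groups was small, 1.42-fold from the lowest old to the highest young value.

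The other leukocyte genes described had lower bounds, under 2-fold. The bounds were at least 1.95-fold for Slc15a3, a peptide and histidine transporter of lysosomes, 1.57-fold for Gimap3, a small GTPase of T lymphocytes, and 1.35-fold for Lyn, a Src family kinase of B cells and myeloid cells. Lyn lay just inside the rule, at 7.42, 8.29 and 9.96% on the old arrays, against 5.39, 5.0 and 5.95% on the young arrays.

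Lists of genes of single leukocyte types set these 10 beside others of their kind. The lists were chosen with earlier results of these data known. Of 31 genes of the neutrophil list on the array, 16 were tested, and 4 of these (Padi4, Fpr1, Retnlg and Stfa2l1) had met the condition that chose the set, the last pair being among the 14 left out. Of the other 12, 3 were higher in old muscle by limma's test (p adjusted by Benjamini-Hochberg, threshold 0.05) and 0 lower, while over all genes tested 0.196% were higher and 0.0574% lower. The median log2 difference of the 12 was 0.78, while Camp, Elane and Trem1 went the other way (-0.40, -0.31 and -0.53). By limma 7 of the 12 had an unadjusted p under 0.05, as had 14.5% of all genes tested. Every old signal lay above every young one in 5 of the 12, beside 7.91% of all genes tested. The 3 that passed were S100a8, S100a9 and Clec4d. Padi4 and Stfa2l1 passed too, on the contrast that chose them. Padi4, Mpzl3 and Astl were the 3 of the 39 genes that passed that test, on the contrast that chose them, so nothing is read from their number. These calls depend on single arrays. Without old replicate 1, 204 genes of all passed in place of 53, and without any other array 1 to 9 did. S100a8, S100a9 and Stfa2l1 passed without each array but old replicate 3, Clec4d only without old replicate 1 or young replicate 2, and Padi4 only without old replicate 1. Clec4d, a receptor of myeloid cells, had 59.1, 47.0 and 60.7% on the old arrays, against 7.58, 13.0 and 7.63% on the young arrays. Its log2 difference was 2.60 ± 0.26 (SE, 3 arrays per age, limma's adjusted p = 0.0264).

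Of 38 tested genes of the monocyte and macrophage list outside the set, 1 passed higher and 0 lower, with a median of 0.84. It was Pirb, an inhibitory receptor of myeloid and B cells, at 265, 268 and 352% on the old arrays and 101, 116 and 110% on the young arrays (log2 difference 1.43 ± 0.18, SE, limma's adjusted p = 0.0432). Pirb passed only without old replicate 1 among the fits that left out an array. By limma 19 of the 38 had an unadjusted p under 0.05, as had 14.5% of all genes tested. Every old signal lay above every young one in 19 of the 38, beside 7.91% of all genes tested. Nos2, Itgam, Cd300lf and Csf1r went the other way (-1.19, -0.26, -0.06 and -0.05). Fcgr1 was the list's only gene in the set of 39. The T and NK cell list had a median of -0.19 over 17 tested genes and the B and plasma cell list -0.14 over 12, and neither holds a gene of the set. By limma 4 of the 17 and 1 of the 12 had an unadjusted p under 0.05. Of 20 genes that all leukocytes share (a list added after the values were seen), 16 were tested and 12 had a positive log2 difference, from -0.20 for Itgal to 1.33 for Cd52. With limma 0 of them passed after adjustment and 9 had an unadjusted p under 0.05, as had 14.5% of all genes tested. Their median log2 difference was 0.71, and every old signal lay above every young one in 8 of the 16, beside 7.91% of all genes tested. Ptprc, the leukocyte antigen CD45, had 19, 10.1 and 15.8% on the old arrays, against 10.3, 7.08 and 5.05% on the young arrays, and its groups overlapped. With each gene centred on its own mean over the arrays, the median of the 16 was 0.24, 0.15 and 0.64 (log2) on the old arrays, against -0.17, -0.41 and -0.27 on the young arrays, which did not overlap. Their summed signal, in which bright genes weigh most, ran from 6200 to 6630% on the old arrays and from 4810 to 7020% on the young arrays, which overlapped. The part of leukocyte number in the values of the 10 genes was not tested.

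**Figure D3:**
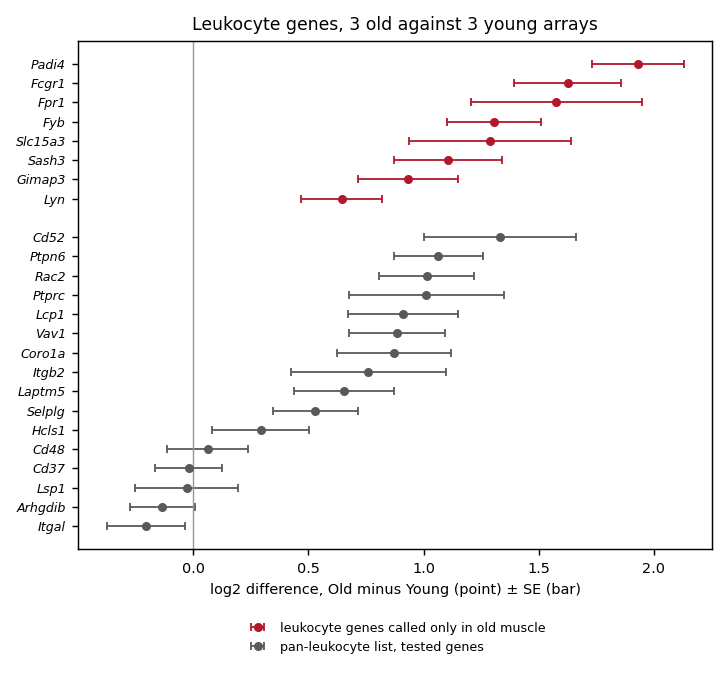
Log2 difference, Old minus Young, with its SE (3 arrays per age) for 8 of the 10 leukocyte genes called only in old muscle (red, 0.64 to 1.93) and the 16 tested genes of the pan-leukocyte list (grey, -0.20 to 1.33). The red genes were chosen by this contrast, and none was called well above background on a young array.

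The genes of plasma proteins and liver enzymes form the second group. Cyp4f14, an enzyme that inactivates the lipid mediator leukotriene B4, had 31.1, 44.6 and 17.3% on the old arrays, against 6.83, 6.72 and 7.03% on the young arrays. It had the highest bound of the 39 genes, at least 4.21-fold. Ahsg, the plasma protein fetuin-A, had 12.5, 39 and 14.9% on the old arrays, against 1.89, 7.16 and 1.72% on the young arrays, and was at least 3.02-fold brighter. Saa2, an acute-phase apolipoprotein, had 9.33, 26.8 and 18.6% on the old arrays, against 4.39, 4.54 and 2.85% on the young arrays, and was at least 2.66-fold brighter. In Cyp4f14, Ahsg and Saa2, old replicate 2 was the brightest array.

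Serpina1d, one of the mouse genes for the protease inhibitor alpha-1 antitrypsin, had 10.8, 23.4 and 13.4% on the old arrays, against 1.11, 6.58 and 1.78% on the young arrays (at least 2.39-fold). F10, the coagulation factor X, had 8.73, 11.3 and 26.0% on the old arrays, against 5.09, 4.94 and 2.36% on the young arrays (at least 2.18-fold). Here old replicate 3 stood above the others by more than 2-fold. The bounds of the others were at least 2.09-fold for Cyp4f39, a fatty acid hydroxylase known from skin, and 2.07-fold for Cpn1, the catalytic chain of carboxypeptidase N. For Shbg, known in humans as the plasma carrier of sex steroids, the bound was at least 1.52-fold. The mouse Serpina1 genes are near-identical, as are Saa1 and Saa2, and a probe for one may read another.

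The 3 old arrays did not carry these 8 genes alike. Old replicate 2 was the brightest of the old arrays for 5 of them (Cyp4f14, Ahsg, Saa2, Serpina1d and Cyp4f39), old replicate 3 for 3 and old replicate 1 for 0. Among the 19185 tested genes called on all 3 old arrays, old replicate 2 was the brightest for 38.3%, old replicate 3 for 27.2% and old replicate 1 for 34.5%. At the median the 8 genes lay 0.83 higher on the log2 scale on old replicate 2 than on the mean of the other old arrays. For the 10 leukocyte genes that median was -0.22 on old replicate 2, and old replicate 2 was the brightest for 1 of them, Sash3. The rule does not fix how a gene differs among the old arrays, but 8 and 10 genes of 3 arrays give no test of the difference between the groups. Without old replicate 2 the bounds of the 8 genes ran from 1.62-fold to 3.38-fold, and 5 of them, in place of 7, reached 2-fold. The rule asked for the mark on the other old arrays too, so nothing is read from bounds over 1.

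**Figure D4:**
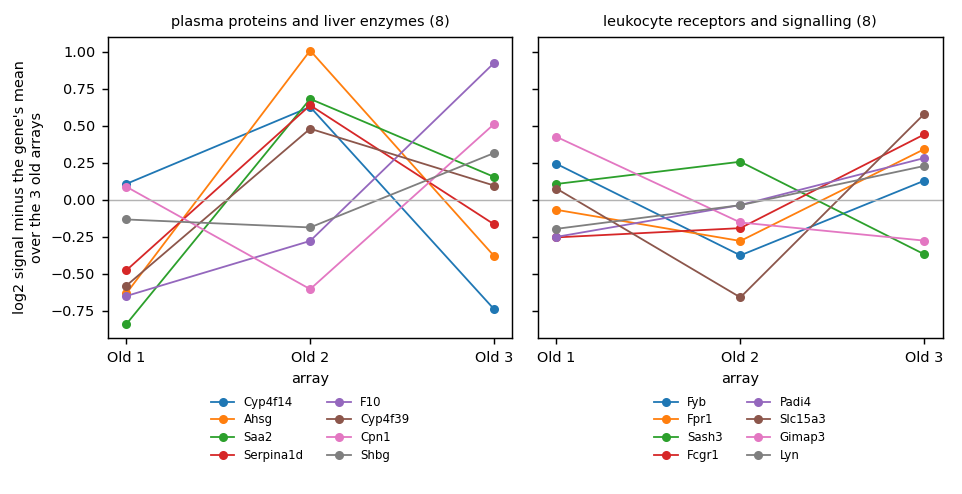
Log2 signal of each gene on old replicates 1, 2 and 3 minus its own mean over those arrays, for the 8 plasma protein and liver enzyme genes and 8 of the 10 leukocyte genes. In the first panel 5 genes peak on old replicate 2, and in the second 1 does. Of all tested genes called on all 3 old arrays, 38.3% do.

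Other transcripts of the liver were set beside these. A list of 48 hepatocyte genes was added after the values were seen, and 47 were on the array. The number called well above background was 23, 30 and 22 on old replicates 1, 2 and 3, against 16, 19 and 17 on young replicates 1, 2 and 3. These counts include the 5 genes of the list that belong to the set (Ahsg, Cpn1, F10, Saa2 and Serpina1d). The rule fixed those 5 as called on every old array and on no young array. The difference between the ages in these counts is therefore partly fixed in advance, and nothing is read from it. Alb, Hpx, Fgg, Ambp and Serpina3k were called on old replicate 2 alone of the 6 arrays. Fgg, a chain of fibrinogen, had 39.4% on old replicate 2, against 1.44 and 1.22% on old replicates 1 and 3 and 1.1 to 1.38% on the young arrays. Alb, the serum albumin gene and the most abundant transcript of the liver, had 25.9% on old replicate 2, against 7.65 and 2.93% on old replicates 1 and 3 and 3.96 to 6.18% on the young arrays.

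Not all liver genes followed. Of the 47 genes 16 were called on no array, among them Apoa1, Ttr, Fga and the liver factor Hnf4a. Of the 23 tested genes 5 belong to the set, and the other 18 had a median log2 difference of 0.51. With limma 0 of these 18 passed after adjustment, and 10 had an unadjusted p under 0.05, beside 14.5% of all genes tested. Every old signal lay above every young one in 6 of the 18, beside 7.91% of all genes tested. With each gene centred on its own mean, the median of the 18 was 0.05, 0.43 and 0.17 (log2) on the old arrays, against -0.09, -0.04 and -0.30 on the young arrays, which did not overlap. The summed signal of all 23 ran from 4410 to 5920% on the old arrays and from 3490 to 4880% on the young arrays, which overlapped. Kng1, the precursor of kinins, ran the other way among the old arrays, at 68.2, 30.5 and 20% on old replicates 1, 2 and 3, against 1.18, 11.1 and 7.45% on the young arrays. The part of liver transcripts in the values of the 8 genes was not tested.

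**Figure D5:**
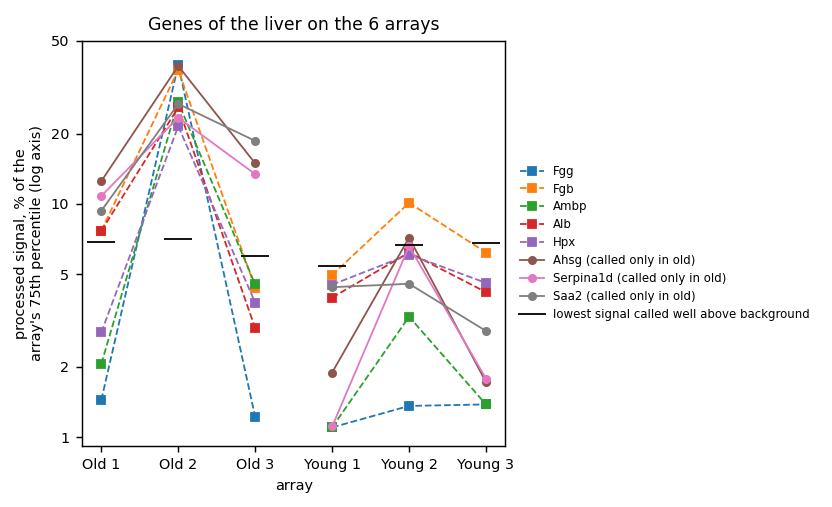
Signal of 8 liver genes on each array as a percentage of the array's 75th percentile (log axis), with solid lines for 3 genes called only in old muscle and dashed lines for 5 others, and black dashes for the lowest signal called well above background. Fgg, Fgb, Ambp, Alb and Hpx reach 21.5 to 39.4% on old replicate 2 and stay at or under 10.1% on all other arrays. The 8 genes were picked after their values were seen. F10, Cpn1 and Kng1 of the same list, each brightest on another old array, are not shown.

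Genes tied to nerve and receptor assembly included Ric3, a chaperone that helps nicotinic acetylcholine receptors assemble. It had 23.3, 13.6 and 22.4% on the old arrays, against 5.99, 4.96 and 2.02% on the young arrays, and was at least 2.97-fold brighter. Both of its other probes were called on no array. Tubb3, the beta-tubulin of neurons, had 9.51, 12.4 and 29.2% on the old arrays, against 4.53, 4.25 and 6.31% on the young arrays (at least 2.41-fold). Old replicate 3 was far above the other old arrays, a range of 3.07-fold. Celf6, an RNA-binding protein of the CELF family, had 18.1, 19.5 and 14.1% on the old arrays, against 4.65, 9.37 and 3.35% on the young arrays (at least 2.43-fold). Rin1, an effector of Ras that is abundant in neurons, had 17.0, 8.98 and 18.7% on the old arrays, against 5.26, 7.34 and 2.29% on the young arrays (at least 2.19-fold).

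The lists of neuronal and of nerve-dependent muscle genes gave a mixed background for these. Tubb3 was the neuronal and synaptic list's only gene in the set. Of its 22 tested genes that had not met the condition for the set, 0 passed in either direction by limma (3 at an unadjusted p under 0.05), with a median log2 difference of -0.06. Kcnd3, one of the 14 genes left out of the set, passed on the contrast that chose it. The denervation and neuromuscular junction list held no gene of the set, and Chrng was among the 14 left out. Of its other 37 tested genes 1, Gdf5, passed higher and 1, Prima1, lower, with a median of 0.61. By limma 23 of the 37 had an unadjusted p under 0.05, in either direction, as had 14.5% of all genes tested. Every old signal lay above every young one in 16 of the 37, beside 7.91% of all genes tested. The Schwann cell list had a median of -0.60 over 17 tested genes and no gene in the set. By limma 0 of the 17 passed higher and 1, Prx, lower, and 11 had an unadjusted p under 0.05.

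Among genes of mitochondria, protein folding and proteolysis, Pdia2, a protein disulfide isomerase best known from the pancreas, met the rule with both of its probes. The brighter gave 21.2, 9.16 and 18% on the old arrays, against 2.64, 5.12 and 1.72% on the young arrays (at least 2.42-fold). The other gave 14, 11.6 and 17.1% on the old arrays, against 1.39, 1.79 and 1.48% on the young arrays, and neither overlapped between the ages. Astl, a metalloprotease best known from the egg, had 10.4, 22.0 and 10.7% on the old arrays, against 2.59, 1.39 and 1.41% on the young arrays (at least 2.15-fold). It had the widest gap of all 39 genes, 4.01-fold between the lowest old and the highest young value. Mpv17l, a relative of the mitochondrial membrane protein Mpv17, had 23.8, 11 and 11.8% on the old arrays, against 6.25, 5.66 and 7.59% on the young arrays (at least 2.14-fold). Mcub, the inhibitory subunit of the mitochondrial calcium uniporter, lay at the very edge of the rule, at 11.3, 7.42 and 7.44% on the old arrays, against 3.62, 6.64 and 7.30% on the young arrays.

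Of the genes with products in the nucleus, Srarp, known in human cells as a regulator of steroid receptors, had 10.2, 17.4 and 31.5% on the old arrays, against 2.82, 2.10 and 5.72% on the young arrays (at least 2.83-fold). Its old values spanned 3.10-fold, second in width to Ahsg with 3.11-fold. Swsap1, a partner in homologous recombination, was at least 1.96-fold brighter, the histone gene H2bc3 at least 1.91-fold and the nucleolar gene Nol10 at least 1.70-fold. Histone H2B genes are near-identical, so the probe of H2bc3 may read other copies. No gene of the cell cycle list was in the set, and of its 27 tested genes 0 passed in either direction by limma (6 at an unadjusted p under 0.05), with a median of -0.10.

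The last genes share no role. Ydjc had 17.4, 8.77 and 22.0% on the old arrays, against 3.31, 5.15 and 2.24% on the young arrays (at least 2.39-fold). The lncRNA Gm11627 had 14.2, 27.2 and 26.6% on the old arrays, against 6.76, 6.18 and 6.25% on the young arrays (at least 3.22-fold, the second highest bound of all). The lncRNA BB014433 had 12.2, 16.2 and 15.7% on the old arrays, against 3.33, 7.48 and 4.32% on the young arrays (at least 2.24-fold). Neither lncRNA had overlapping groups. The bounds were at least 1.99-fold for Meig1, known from spermatogenesis, 1.97-fold for Mpzl3, a relative of the myelin protein P0, 1.90-fold for Tmem273 and 1.47-fold for Glrp1.

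Over all 39 genes, old replicate 1 was the brightest old array for 11 (28.2%), old replicate 2 for 13 (33.3%) and old replicate 3 for 15 (38.5%). Old replicate 1 was the dimmest for 18 (46.2%), old replicate 2 for 14 (35.9%) and old replicate 3 for 7 (17.9%). Among the 19185 tested genes called on all 3 old arrays, the dimmest array was old replicate 1 for 41.1%, old replicate 2 for 24.5% and old replicate 3 for 34.4%. The brightest was old replicate 1 for 34.5% of them, old replicate 2 for 38.3% and old replicate 3 for 27.2%. The spread within the old group had a median of 1.62-fold from the dimmest to the brightest array.

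Just outside the rule stood some genes with larger differences than most inside it. A further 123 genes were called on 2 of 3 old arrays and on no young array, and 68 on all 3 old arrays and 1 young array. Those named here were picked as the 3 of each kind with the highest old mean, clone names left out. They do not stand for the rest of their kind. Fgf21, a hormone of liver and stressed muscle, had 74.2 and 77.8% on old replicates 2 and 3 but 3.61% on old replicate 1, against 1.16, 1.44 and 1.46% on the young arrays. Mcoln2, a channel of endosomes and lysosomes, had 10.1, 21.3 and 79.3% on the old arrays and was called on 2 of them, against 6.04, 7.78 and 8.55% on the young arrays. Hamp2, a hepcidin gene, had 79.3, 42.1 and 4.68% on the old arrays, against 3.04, 4.47 and 4.60% on the young arrays. For Fgf21 it was old replicate 1 that stayed dark, and for Hamp2 old replicate 3.

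Of the genes called on all old arrays and on 1 young array, Shisal1 had 52.3, 94.2 and 129% on the old arrays, against 4.28, 7.61 and 9.22% on the young arrays. Stk33, a protein kinase of the testis, had 229, 25.6 and 51% on the old arrays, against 3.53, 11.8 and 4.56% on the young arrays. Slpi, a protease inhibitor of mucosal surfaces and phagocytes, had 50.7, 39.4 and 70.6% on the old arrays, against 14.9, 2.91 and 5.64% on the young arrays. The old values of Shisal1, Stk33 and Slpi were far above the lowest signals called. At the inner edge, next to Mcub and Lyn, was Slc15a3 with 12.9, 7.75 and 18.3% on the old arrays, against 4.80, 3.92 and 6.65% on the young arrays.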

How the data were processed

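Total RNA from 3 old and 3 young gastrocnemius samples was measured on 6 arrays of 1 slide. Each spot's intensity in the scanner files, as deposited, had its background and spatial trend removed; per the file headers this was done in Agilent Feature Extraction 11.0.1.1, while version 9.5 stands in the submitters' processing notes. Their 0 or 1 marks, of other units, were used as deposited. The authors' deposited value table holds that intensity as a rounded percentage (times 100) of each array's 75th percentile (tolerance 0.51), with column medians of 6 to 9, and served as an alternative; its scale is linear, uncentred and in the direction of the signal.

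Spots flagged as outliers (161 to 212 per array) were left out, log2 signals were scaled to the 75th percentile over non-control probes, and spots of a probe were averaged. A probe with several spots counted as called unless most of its spots were not. Of 55681 probes 28331 matched 1 RefSeq symbol each (GRCm38.p6 table, names only; the array grid is mm9), and 27350 kept the file's name. For the fit over all genes, probes called on at least 3 of 6 arrays were kept (28013) and a gene took its brightest (20907 genes, all 39 passing only through the old arrays). Limma 3.58.1 in R 4.3.3 (lmFit, eBayes, two-sided, Benjamini-Hochberg) was checked on simulated data. An exact permutation test of 3 against 3 cannot go below p = 0.1 and was not used. Tables were made with pandas 2.3.3 and numpy 2.4.6, and figures with matplotlib 3.10.9, in Python 3.11.15.

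The genes and lists were chosen with earlier results of these data known. Per-array values are given for the 20 genes with the largest bound, the list members among the 39 and those just inside and outside the rule. The genes just inside were those with the lowest old signal, and the genes outside those with the highest old mean. Other genes shown in this way were chosen after their values were seen (Lce1c, Clec4d, Pirb, Ptprc and the liver genes). Other members are named with their bound, predicted genes outside the 20 are only counted, and genes of a list that passed the test are named. The groups by role, the lists of liver and pan-leukocyte genes and both uses of the slide row (as a block, and within its first row) were added after seeing the data. Alternatives covered the call, scaling, background correction, filters, probes, the fit, blocks and leaving out each array with the genes and probes kept as they were. Normexp used the median signal, since the mean signal that had been planned is not a column used here. Of the 39 genes, 2 are counted but not reported here by name.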

Additional observations from a re-analysis of the deposited data

How the results depend on the processing

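Under the alternatives run, the median log2 difference of the 39 genes stayed positive: 1.53 with median centring, 0.36 with normexp (0.12 to 0.71 over the genes, all 39 positive), 1.51 with the slide row as a block, which here is the same as within the first row since all young arrays lie there (both added after seeing the data), and 1.48 to 1.75 without 1 array. Of 231 values of 21 named genes over the alternatives, 210 stayed within 1 SD, 0 reversed and the other 21 were the smaller values with normexp. The genes were chosen by this contrast, so nothing is read from the signs. The number of bounds at or over 2-fold was 14 with median centring and 16 to 28 without 1 array. The number of genes that met the rule was 20 with the negative-control limit and 47 to 89 without 1 array, and 52 to 122 for young muscle, where fewer arrays ask less. Old replicate 1 lay -0.10 from the mean of the other old arrays at the median of the 39 genes, -0.33 with quantile normalization and -0.53 with median centring, which lowers the median difference of all genes to -0.21. Over all genes limma called 53 (41 higher), 8 with no filter, 35 with probes called on all 6 arrays and 1 to 204 without 1 array, the extremes being without old replicate 3 and old replicate 1. It called 26 higher of 42 with median centring, 30 of 46 with normexp and 22 of 41 with the slide row as a block. Of the 39 genes, limma called 3 (37 at an unadjusted p under 0.05), 0 with quantile normalization, median centring, normexp, no filter or the slide row as a block (35, 35, 25, 36 and 30 unadjusted), and 0 to 6 without 1 array, the 6 being without old replicate 1. With the replicate number as a block 5 genes passed, of which 0 were among the 39 (37 unadjusted). The deviations of same-numbered arrays correlated at -0.06, -0.27 and 0.03, so the numbers were not taken as pairs. The signal over background limits these values too, since the weakest old signal lay within 2-fold of the lowest one called in 36 of the 39 genes.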

Other observations

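Probes whose accession matched no symbol were not part of the rule. Of 27350 such probes, 66 were called on all 3 old arrays and on no young array, and 73 on all 3 young arrays and on no old array. Among the 28331 probes with a symbol these counts were 77 and 54. Of the genes with a symbol, 12696 had a probe called on all 6 arrays and 5922 were called on no array. The fibroblast, matrix, bone and cartilage list held none of the 39 genes and 3 of the 37 called only in young muscle (Adamts18, Cilp2 and Col11a1). Of its 36 tested genes 0 passed higher and 5 lower by limma, with a median log2 difference of -0.80. Cilp2, a cartilage protein, was at least 5.01-fold brighter in young muscle.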
